A study of Mus musculus with 6 samples.

Results

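The genes of the Hippo pathway and the genes switched on by its co-activators YAP and TAZ were examined in cultured mouse mammary stem cells with and without MLL3, the histone methyltransferase encoded by Kmt2c. The 36 genes were chosen by function, though with earlier results of these data known: 17 pathway components, 15 YAP/TAZ targets, and 4 feedback genes that are both. Of these, 35 were measured among 22180 genes in all, and Stk3 (the MST2 kinase) was not paired with a probe set of its own. All 15 targets, all 4 feedback genes and 16 components had a value. Expression was read on 6 single-channel Affymetrix arrays, 3 hybridised with RNA of wild-type cells (WT) and 3 with RNA of Mll3-null cells. Both groups were grown as mammary stem cell organoids, with no treatment named, and the series states that its lines were made by CRISPR. The labels call the arrays of a group biological replicates without saying whether they are separate lines, clones or cultures, so p-values measure only the spread between these samples. The study asked what loss of MLL3 does to these cells.

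The Hippo pathway is a kinase cascade. The MST kinases, with the scaffold Sav1, activate the LATS kinases and their partners Mob1a and Mob1b, and LATS phosphorylates YAP (Yap1) and TAZ (Wwtr1), which are then held in the cytoplasm or degraded. Unphosphorylated YAP and TAZ enter the nucleus, bind the TEAD transcription factors and switch on genes of adhesion, matrix and growth. The activity of YAP and TAZ is set mainly at the protein level, so the mRNA level of a component does not measure it. In the mammary gland YAP and TAZ are known for roles in basal and stem-like epithelial cells.

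The values are log2 expression summaries, so a difference of 1 is a 2-fold change. The arrays were scaled alike before deposit (medians 4.35 to 4.40), and signals of different genes are not compared because each probe set has its own response. The third Mll3-null array differed from the rest: on it 294 genes were over 1 log2 unit below, and 123 over 1 unit above, every other array, against 1 to 24 below and 9 to 33 above for the other arrays. Its basal keratins were low, with Krt14 at 6.65 and Krt17 at 4.80 against 11.74 or more and 9.61 or more elsewhere. For that reason many differences are also given without that array, though not all. The plot of differences of the 35 measured genes shows both values for each of them. For single genes of the other lists the value without that array is mostly not given. As a check of the labelled cell type, the epithelial markers were read: 19 of 19 luminal and 13 of 17 basal markers passed 6 (log2) on at least 1 array. Of the luminal markers Muc1, Elf3 and Pgr passed 6 only on Mll3-null arrays. All 10 endothelial, 10 immune and 7 adipocyte markers measured stayed under 6 on every array, as did 9 of 12 fibroblast markers. The others were Pdgfra, Postn and Twist1, with Postn at 8.12 to 10.68 on all arrays but Mll3-null replicate 3 (3.37). A single limit for all probe sets is only a rough guide, since their responses differ.

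Targets of YAP and TAZ were mostly lower in Mll3-null cells by their means, but the size of the shift differed among the Mll3-null arrays. Of the 15 targets, 14 had a lower mean and 1, F3, a higher one, with a median log2 difference of -0.72. Over all genes 48.5% had a lower mean and the median difference was 0.0058, and among the 8752 genes with a mean over 6, which most targets belong to, 55.1% had a lower mean and the median was -0.022. No target passed limma's test after Benjamini-Hochberg adjustment over all 22180 genes, where 0% of genes were called (smallest adjusted p 0.84). Before adjustment 3 targets had a p under 0.05 (limma), all lower (Ccn1, Asap1 and Ankrd1), against 2.42% of all genes lower and 2.51% higher. Of the 8752 genes with a mean over 6, 323 were lower and 203 higher at that limit. For 2 targets, Ccn1 and Asap1, every Mll3-null array lay below every WT array, which was so for 5.31% of all genes. Wholly above lay 0 targets, against 5.44% of genes. Among the 8752 genes with a mean over 6, 657 lay wholly below and 362 wholly above. In these bulk samples fewer cells of a type and less RNA per cell cannot be told apart.

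**Figure D1:**
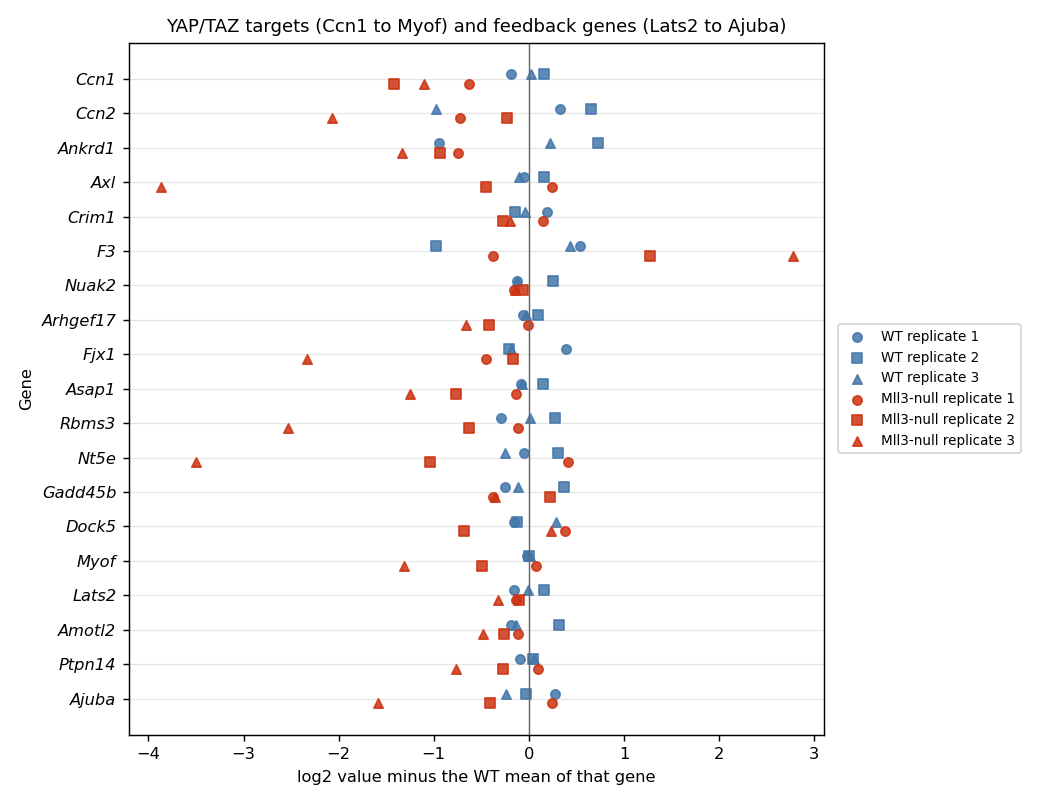
Log2 value of each YAP/TAZ target and feedback gene on each array, minus the WT mean of that gene (horizontal axis, log2 units), blue for WT and red for Mll3-null arrays with a marker shape per replicate. Mll3-null replicate 3 (red triangles) lies farthest left for Axl, Nt5e, Rbms3 and Fjx1 and farthest right for F3, while all red points of Ccn1 lie left of all blue ones.

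The canonical targets are the matricellular proteins Ccn1 (formerly Cyr61) and Ccn2 (formerly Ctgf), which are secreted and bind integrins, and Ankrd1, an ankyrin-repeat cofactor in the nucleus. Sequence upstream of their start sites was searched for the 6-base core of the TEAD binding motif, GGAATG, and its reverse complement CATTCC, in the 250 bases before each start site in the RefSeq promoter table (GRCm38.p6). A promoter was listed for 27 of the 36 genes, and Ccn2 was not among them. At least 1 match was present for 14 of these 27 genes: 4 of 9 targets, 3 of 4 feedback genes and 7 of 14 components. Over 27025 genes in that table the share with a match was 14.4%, and over 32851 promoters it was 12.6%. A match is a description of letters and says nothing of binding in these cells. Ccn1 and Vgll3 are shown because they had the smallest p of the targets and of the components, and Ankrd1 as a canonical target, with matches in capitals, 5′ to 3′ toward the start site.
Ccn1 (chr3:145649986-145650235, minus strand): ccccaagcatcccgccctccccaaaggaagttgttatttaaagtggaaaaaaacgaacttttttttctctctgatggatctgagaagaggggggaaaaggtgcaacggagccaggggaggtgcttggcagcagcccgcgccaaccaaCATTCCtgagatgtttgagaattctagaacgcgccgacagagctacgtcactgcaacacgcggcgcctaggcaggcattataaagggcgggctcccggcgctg
Ankrd1 (chr19:36119845-36120094, minus strand): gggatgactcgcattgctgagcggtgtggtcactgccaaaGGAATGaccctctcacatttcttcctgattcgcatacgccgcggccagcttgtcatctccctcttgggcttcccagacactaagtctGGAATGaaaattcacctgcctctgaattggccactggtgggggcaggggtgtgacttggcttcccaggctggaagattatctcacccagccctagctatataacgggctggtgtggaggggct
Vgll3 (chr16:65814939-65815188, plus strand): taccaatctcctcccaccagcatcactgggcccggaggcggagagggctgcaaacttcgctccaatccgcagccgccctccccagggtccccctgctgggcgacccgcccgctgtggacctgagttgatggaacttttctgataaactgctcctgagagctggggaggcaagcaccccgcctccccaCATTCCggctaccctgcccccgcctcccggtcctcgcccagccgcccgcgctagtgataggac
The match of Ccn1 begins 103 bases upstream of the start site and that of Vgll3 63 bases upstream. Ankrd1 holds 2 matches, beginning 210 and 123 bases upstream.

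Ccn1 read 8.99, 9.34 and 9.20 in WT replicates 1 to 3 and 8.55, 7.76 and 8.07 in Mll3-null replicates 1 to 3 (log2). The groups did not overlap, and the highest Mll3-null array was replicate 1. The difference was -1.05 ± 0.21 (log2, SE; 95% interval -1.56 to -0.55), or 2.07-fold lower, with an unadjusted p of 0.0019 and an adjusted p of 0.84 (limma). It ranked 23 of 22180 genes by p. Without Mll3-null replicate 3 the difference was -1.03, and leaving out each array in turn it ran from -1.26 to -0.87.

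Ccn2 varied more within each group than Ccn1, at 8.03, 8.35 and 6.72 in WT and 6.97, 7.47 and 5.63 in Mll3-null replicates 1 to 3. The groups overlapped: WT replicate 3 lay below Mll3-null replicates 1 and 2. Its difference was -1.01 ± 0.59 (SE; 95% interval -2.41 to 0.40), and leaving out 1 array gave values from -0.48 (without Mll3-null replicate 3) to -1.50 (without WT replicate 3). It was -0.52 with array weights. Ccn2 is on chromosome 10, and the expressed genes of that chromosome were high in WT replicate 1 (median 0.22 over their 6-array median, against -0.05 to 0.01 elsewhere). After subtraction of chromosome medians the difference of Ccn2 was -0.90. A dimmer probe set of Ccn2, with a mean of 3.94 over the arrays, differed by -0.29 ± 0.22 (SE), and the mean of both probe sets by -0.65.

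Ankrd1 read 5.46, 7.14 and 6.63 in WT and 5.67, 5.47 and 5.07 in Mll3-null replicates 1 to 3. WT replicate 1 lay inside the Mll3-null range, so the groups overlapped. The difference was -1.01 ± 0.42 (SE), with an unadjusted p of 0.049 and an adjusted p of 0.84 (limma). It was -0.64 without WT replicate 2 and -1.48 without WT replicate 1. Mll3-null replicate 3 weighed less here, since without it the value was -0.84.

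Asap1, an Arf GTPase-activating protein of focal adhesions, read 9.03, 9.26 and 9.04 in WT and 8.98, 8.35 and 7.86 in Mll3-null replicates 1 to 3. The groups did not overlap, although Mll3-null replicate 1 lay only just under the lowest WT array. Its difference was -0.72 ± 0.27 (SE), or 1.64-fold lower, with an unadjusted p of 0.035 and an adjusted p of 0.84 (limma). Without Mll3-null replicate 3 it was -0.45, and without Mll3-null replicate 1 it was -1.01.

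A further set of targets was low mainly in Mll3-null replicate 3. Nt5e, the ectonucleotidase CD73, had the widest mean difference of the targets; it read 10.69, 11.05 and 10.49 in WT and 11.15, 9.70 and 7.24 in Mll3-null replicates 1 to 3. Mll3-null replicate 1 was the highest of the 6 arrays and replicate 3 the lowest. The difference of -1.38 ± 0.91 (SE) became -0.32 when Mll3-null replicate 3 was left out and -2.27 when replicate 1 of that group was. Axl, a receptor tyrosine kinase, read 10.27, 10.49 and 10.23 in WT and 10.57, 9.88 and 6.46 in Mll3-null cells. Here too Mll3-null replicate 1 lay above all WT arrays, and the difference of -1.36 ± 1.00 became -0.11 without replicate 3, -2.16 without replicate 1 and -0.77 with array weights.

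Rbms3, an RNA-binding protein, read 8.09, 8.65 and 8.39 in WT and 8.26, 7.75 and 5.84 in Mll3-null replicates 1 to 3, a difference of -1.09 ± 0.59 (SE) and of -0.37 without replicate 3. Fjx1, the homologue of four-jointed, read 7.25, 6.66 and 6.68 in WT and 6.41, 6.70 and 4.53 in Mll3-null cells, a difference of -0.98 ± 0.56 and of -0.31 without replicate 3 or -0.53 with array weights. Both genes overlapped between the groups and were lowest in Mll3-null replicate 3. Myof (myoferlin, a membrane repair protein) was nearly constant in WT, at 10.43, 10.45 and 10.46, and read 10.52, 9.95 and 9.13 in Mll3-null replicates 1 to 3. Its difference was -0.58 ± 0.32, with -0.21 without replicate 3 and -0.90 without replicate 1. Arhgef17 was at 8.43 to 8.59 in WT and 8.49, 8.08 and 7.84 in Mll3-null replicates 1 to 3, a difference of -0.36 ± 0.17. Without replicate 3 it was -0.21.

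F3, tissue factor, was the target with a higher mean. It read 7.78, 6.27 and 7.68 in WT and 6.87, 8.52 and 10.02 in Mll3-null replicates 1 to 3. The groups overlapped, and replicate 3 was more than 1 log2 unit above every other array. The difference of 1.22 ± 0.81 (SE) was 0.45 without Mll3-null replicate 3, 2.02 without replicate 1 of that group, 0.74 without WT replicate 2, and -0.036 without both, the last chosen after the data were seen. The remaining 4 targets differed little. Crim1, a transmembrane protein that binds growth factors, differed by -0.11 ± 0.15, the AMPK-related kinase Nuak2 by -0.12 ± 0.13, the stress-response gene Gadd45b by -0.17 ± 0.23 and the Rac exchange factor Dock5 by -0.021 ± 0.29. Nuak2 lies on chromosome 1, where expressed genes were high in Mll3-null replicate 3 (median 0.30 over their 6-array median) and, by 0.09, in replicate 2. With chromosome medians subtracted the difference of Nuak2 was -0.29. Gadd45b, on chromosome 10, differed by 0.013 without WT replicate 2.

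The Mll3-null arrays differed among themselves in how many targets were low. In replicate 3, 13 of 15 targets lay below the WT range and the median deviation from the WT mean was -1.25. In replicate 2, 9 lay below the WT range (median -0.45). In replicate 1, 5 lay below it, 6 within it and 4 above it (median -0.14). The corresponding shares of all genes below the WT range were 28.6%, 25.5% and 23.6% in replicates 3, 2 and 1. Replicate 3 was the lowest of the 6 arrays for 9 of 15 targets, against 21.4% of all genes and 2481 of the 8752 genes with a mean over 6. Without that array 14 targets still had a lower mean, with a median of -0.21. In that smaller comparison 2 lay wholly below WT, against 9.36% of all genes and 1079 of the 8752 with a mean over 6. Without Mll3-null replicate 1 the target median was -1.01 and 8 targets lay wholly below WT, against 14% of all genes.

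**Figure D2:**
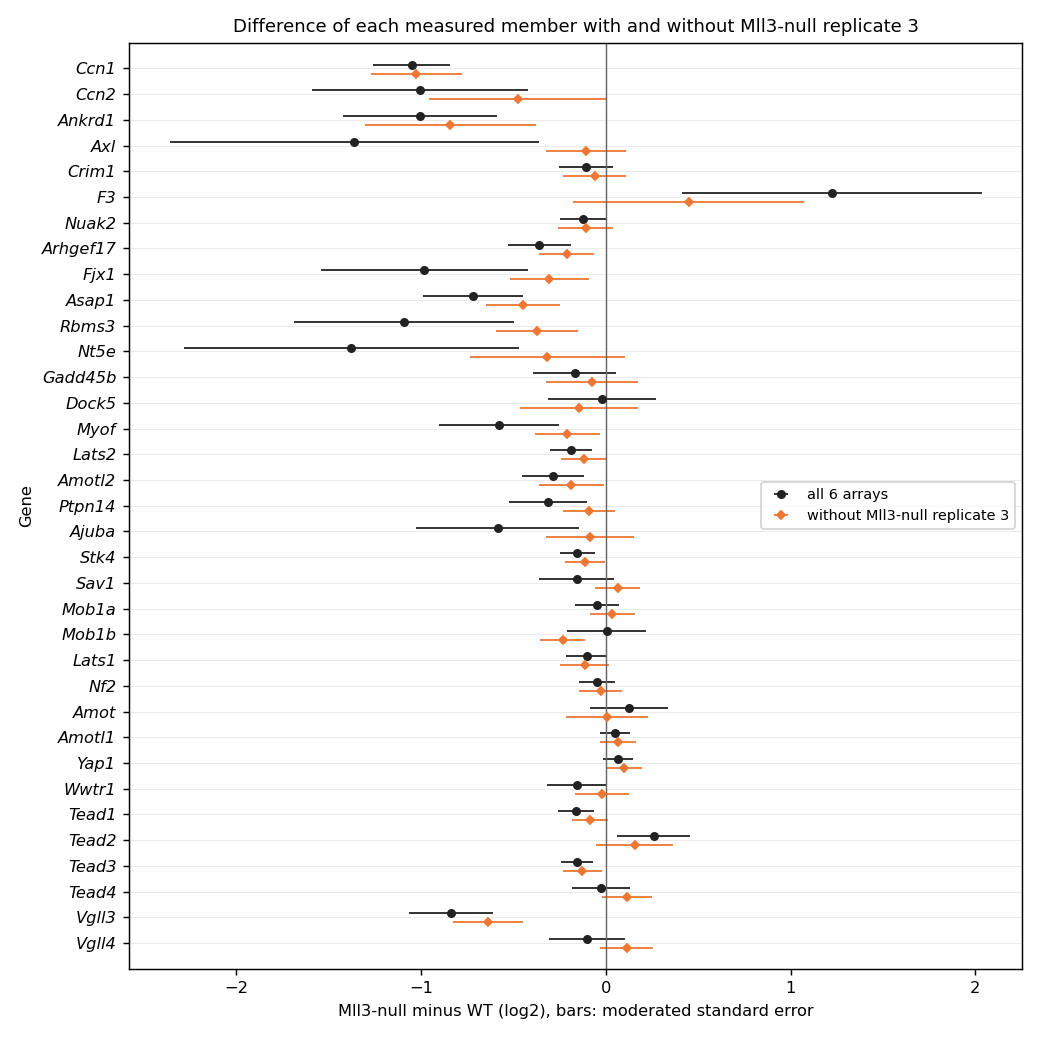
Mll3-null minus WT difference (horizontal axis, log2 units) of each of the 35 measured genes with its moderated standard error, from all 6 arrays (black circles) and without Mll3-null replicate 3 (orange diamonds). Ccn1 stays at -1.03 without that array, while Axl moves from -1.36 to -0.11 and Nt5e from -1.38 to -0.32.

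The feedback genes are induced by YAP and TAZ and act back on the pathway: the kinase Lats2, the angiomotin-family scaffold Amotl2, the phosphatase Ptpn14, which binds YAP, and Ajuba, a LIM protein that restrains LATS. All 4 had a lower mean, with a median of -0.30, and 0 were separated between the groups. Lats2 read 5.36, 5.68 and 5.51 in WT and 5.38, 5.41 and 5.19 in Mll3-null replicates 1 to 3, a difference of -0.19 ± 0.12 (SE). Only replicate 3 lay below the WT range. Ajuba, the widest of the 4, read 8.71, 8.41 and 8.19 in WT and 8.68, 8.02 and 6.85 in Mll3-null cells, a difference of -0.58 ± 0.44 that became -0.086 without replicate 3 and -0.998 without replicate 1. Amotl2 differed by -0.29 ± 0.17 and Ptpn14 by -0.31 ± 0.21. Ptpn14 is on chromosome 1, and with chromosome medians subtracted it differed by -0.48; it differed by -0.090 without Mll3-null replicate 3 and by -0.52 without replicate 1. Without Mll3-null replicate 3 the median of the 4 genes was -0.10.

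Pathway components moved less. Of 16 measured, 11 had a lower and 5 a higher mean, the median difference was -0.074, and 15 differed by no more than 0.26 in either direction. None passed the adjusted test (limma, adjusted p 0.84 or above). At an unadjusted p under 0.05 there was 1, Vgll3. For 4 components, Vgll3, Tead1, Tead3 and Stk4, every Mll3-null array lay below every WT array, against the 5.31% of all genes given above. Wholly above lay 0. Of the 8752 genes with a mean over 6, to which 14 components belong, 657 lay wholly below. The margin was narrow for Tead1 (8.18 against 8.20) and Stk4 (7.005 against 7.03). Fewer components were separated with chromosome medians subtracted. Without Mll3-null replicate 3, 8 components had a lower mean and the median was -0.0071. In that comparison 5 lay wholly below WT, Mll3-null replicates 1 and 2 of Mob1b being the addition. That held for 9.36% of all genes and 1079 of the 8752 genes with a mean over 6.

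**Figure D3:**
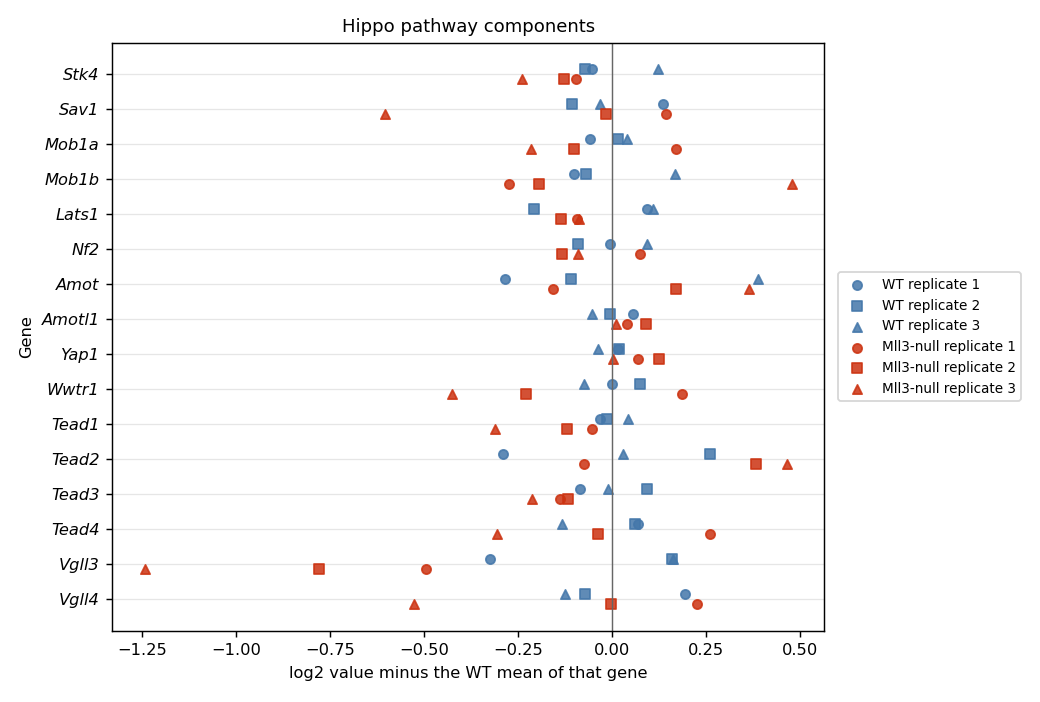
Log2 value of each of the 16 measured Hippo pathway components on each array, minus the WT mean of that gene (horizontal axis, log2 units, on a narrower scale than the plot of targets), coloured and marked as there. Vgll3 has all red points left of all blue ones and the widest spread, and Yap1 runs only from 8.93 to 9.10 over all arrays.

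Yap1 read 8.99, 8.99 and 8.93 in WT and 9.04, 9.10 and 8.97 in Mll3-null replicates 1 to 3. The groups overlapped at replicate 3. The difference was 0.067 ± 0.081 (SE), with a 95% interval of -0.13 to 0.26, so a fall in Yap1 mRNA of more than 0.13 log2 units lies outside the interval. Without Mll3-null replicate 3 the Mll3-null arrays lay wholly above WT, by 0.098 on average. Wwtr1, which encodes TAZ, read 8.88, 8.95 and 8.80 in WT and 9.06, 8.65 and 8.45 in Mll3-null replicates 1 to 3. Mll3-null replicate 1 lay above and replicates 2 and 3 below the WT range, and the difference was -0.16 ± 0.16 (95% interval -0.55 to 0.24), or -0.021 without replicate 3 and -0.33 without replicate 1.

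The TEAD factors carry YAP and TAZ to DNA. Tead1 read 8.20, 8.22 and 8.28 in WT and 8.18, 8.12 and 7.92 in Mll3-null replicates 1 to 3. The groups were separated by a narrow margin, and the difference was -0.16 ± 0.10 (SE), or -0.085 without replicate 3. Tead2 read 7.15, 7.70 and 7.47 in WT and 7.37, 7.83 and 7.91 in Mll3-null cells, overlapping, with a difference of 0.26 ± 0.20 that ran from 0.11 (without WT replicate 1) to 0.43 (without Mll3-null replicate 1). Tead3 read 6.40, 6.58 and 6.48 in WT and 6.35, 6.37 and 6.28 in Mll3-null cells without overlap, a difference of -0.16 ± 0.088 and of -0.13 without replicate 3. Tead4 read 6.39, 6.38 and 6.19 in WT and 6.58, 6.28 and 6.01 in Mll3-null cells, a difference of -0.027 ± 0.16. Mll3-null replicate 1 was the highest and replicate 3 the lowest of the 6 arrays for Tead4.

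Vgll3 and Vgll4 encode cofactors that bind TEAD, Vgll4 as a known competitor of YAP. Vgll3 read 5.70, 6.18 and 6.18 in WT and 5.53, 5.24 and 4.78 in Mll3-null replicates 1 to 3. The groups did not overlap, and the difference was -0.84 ± 0.23 (SE; 95% interval -1.38 to -0.30), or 1.79-fold lower. Its unadjusted p was 0.0085 and its adjusted p 0.84 (limma), with rank 139 of 22180 genes by p. Leaving out each array in turn gave values from -1.01 to -0.64, the smallest without Mll3-null replicate 3. Vgll4 differed by -0.10 ± 0.20, and by 0.11 without that array.

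The kinase cascade itself showed small differences. Stk4, the MST1 kinase, read 7.05, 7.03 and 7.22 in WT and 7.005, 6.97 and 6.86 in Mll3-null replicates 1 to 3 without overlap, a difference of -0.15 ± 0.10 (SE). Without replicate 3 it was -0.11. Lats1 read 8.46, 8.16 and 8.48 in WT and 8.27, 8.23 and 8.28 in Mll3-null cells, so the Mll3-null values lay within the WT range. Its difference was -0.10 ± 0.11, and 0.0059 with chromosome medians subtracted (the gene is on chromosome 10). Sav1 differed by -0.16 ± 0.20 and by 0.065 without replicate 3. The LATS activators Mob1a and Mob1b differed by -0.048 ± 0.12 and 0.0044 ± 0.21; Mob1b was at 9.49 in Mll3-null replicate 3 and at 8.74 and 8.82 in replicates 1 and 2, and without replicate 3 its difference was -0.23. Nf2, which encodes the upstream activator merlin, differed by -0.049 ± 0.10. Among the angiomotins, scaffolds that hold YAP in the cytoplasm, Amot differed by 0.13 ± 0.21 and Amotl1 by 0.047 ± 0.081.

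Wider lists of the pathway were read in the same way. Of 17 measured genes on a list of other YAP/TAZ targets, 13 had a lower mean, with a median of -0.35. Over all genes 48.5% had a lower mean, with a median of 0.0058, against 55.1% and -0.022 among genes with a mean over 6. On that list 0 passed the adjusted test. At an unadjusted p under 0.05 (limma) there was 1, the EGF-family ligand Ereg, against 2.42% of all genes lower and 2.51% higher. Ereg read 8.64, 9.37 and 9.25 in WT and 8.91, 7.40 and 6.99 in Mll3-null replicates 1 to 3, a difference of -1.32 ± 0.50 (SE). The matrix protein Thbs1 differed by -0.58 ± 0.25 and the guidance ligand Slit2 by -0.92 ± 0.50. The widest difference of the list went the other way: Tgfb2 was higher by 1.64 ± 1.07, or by 0.89 without Mll3-null replicate 3. Without Mll3-null replicate 3 the median of that list was -0.083. Of 61 measured genes on a list of other Hippo regulators, 35 had a lower and 26 a higher mean, with a median of -0.024 and 0 past the adjusted test. The giant cadherin Fat1 differed by -0.51 ± 0.20, the kinase Stk26 by 0.71 ± 0.28 and the polarity protein Dlg5 by -0.35 ± 0.15.

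Other gene groups were read on the same arrays. The mean deviation of the 15 targets from the 6-array mean was 0.24, 0.40 and 0.23 in WT and 0.13, -0.11 and -0.89 in Mll3-null replicates 1 to 3. Basal markers deviated by 0.31, 0.13 and 0.32 in WT replicates 1 to 3 and by 0.42, 0.43 and -1.61 in Mll3-null replicates 1 to 3, and their summed level, as a mean over 17 genes, ran from 8.44 to 8.63 in WT and 6.70 to 8.74 in Mll3-null arrays. Luminal markers deviated by 0.020, -0.28 and 0.10 in WT replicates 1 to 3 and by -0.11, -0.10 and 0.36 in Mll3-null replicates 1 to 3, with mean levels of 8.09 to 8.47 in WT and 8.26 to 8.73 in Mll3-null arrays. Of the 19 luminal markers 1 lay wholly below WT, Cldn4 (-1.58 ± 0.40, SE), and 1 wholly above, Muc1 (2.11 ± 0.64). Over all genes these shares were 5.31% and 5.44%. By list mean the basal markers of Mll3-null replicates 1 and 2 were level, but single markers moved both ways. From replicate 1 to 2 Acta2 rose from 8.76 to 10.25 and Oxtr from 4.74 to 6.54. Over the same arrays Itgb4 fell from 10.63 to 9.72 and Cdh3 from 10.03 to 9.38. For 11 of the 17 basal markers Mll3-null replicate 3 was the lowest of the 6 arrays. For 2 it was the highest, Oxtr at 8.35 and Itga6 at 11.22. Itga6 was the 1 basal marker separated, wholly above WT by 0.28 ± 0.11 (SE), against 5.44% of all genes. In Mll3-null replicate 3 the targets, basal markers and proliferation genes all had their lowest list mean, and the luminal markers their highest. Proliferation genes deviated by 0.53, -0.14 and 0.18 in WT replicates 1 to 3 and by 0.47, -0.32 and -0.72 in the Mll3-null arrays. Of 19 proliferation genes 18 had a lower mean, with a median of -0.36, against 48.5% of all genes and 55.1% of genes with a mean over 6. Without Mll3-null replicate 3, 13 proliferation genes had a lower mean, and the median was -0.16. Only 1 of them, Ccne1, lay wholly below WT on all 6 arrays (-0.35 ± 0.14, SE), against 5.31% of all genes. In WT replicate 2, where the targets were highest, the proliferation genes were the lowest of the WT arrays. Serum-response and AP-1 genes, among which Ccn1 is often counted as an immediate-early gene, had 13 of 23 with a lower mean and a median of -0.021, and deviated by 0.065, -0.11 and 0.15 in WT and by 0.13, 0.062 and -0.30 in Mll3-null replicates 1 to 3; among them Tpm1, a tropomyosin, differed by -0.57 ± 0.13 without overlap between the groups. The part of these groups in the differences of the targets was not tested.

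**Figure D4:**
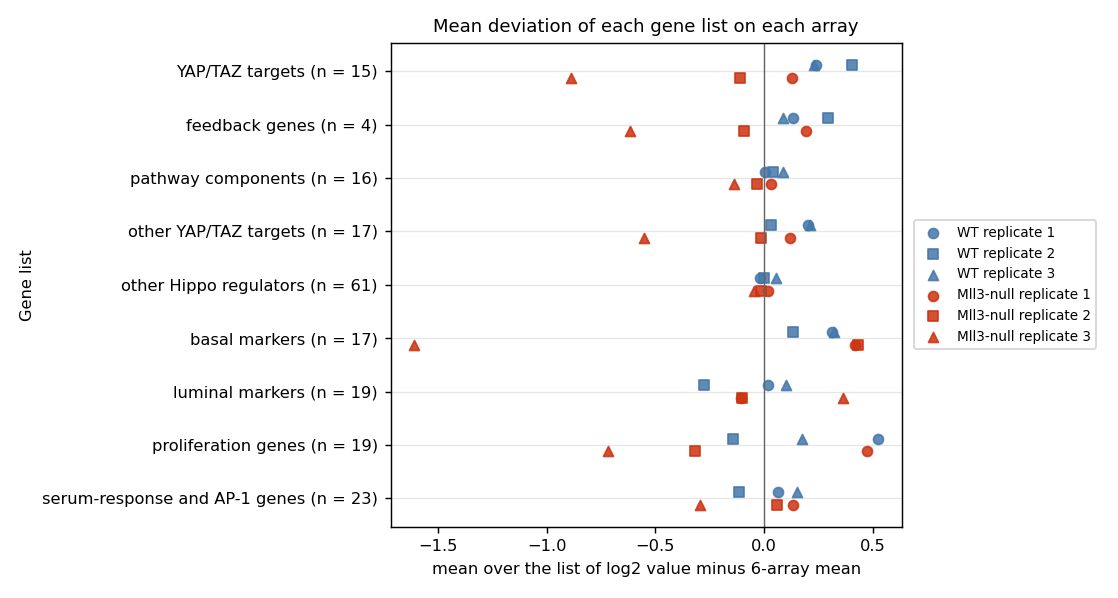
Mean over each gene list of the log2 value minus the 6-array mean of the gene (horizontal axis, log2 units), 1 point per array with WT in blue and Mll3-null in red, n being the measured genes of the list. The targets of Mll3-null replicate 3 lie at -0.89 and its basal markers at -1.61, while the 16 components run only from -0.14 to 0.09 over all arrays.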

How the data were processed

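Total RNA of 6 samples was hybridised to single-channel Affymetrix arrays as biotinylated cRNA, per the labels' protocols. The authors' deposited values, made with Affymetrix Expression Console per the submitters' processing notes, were taken as log2 expression per probe set because of their range and near-equal quartiles. The version and summarization method, and any genome build, were not given in the sources used here. Near-equal quartiles hide a change in total RNA per cell.

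Of 41345 probe sets, 23521 carried exactly 1 gene symbol in the platform annotation; the brightest over the 6 arrays stood for each of 22180 genes, with no filter on low values (all 35 measured members had a mean over 4, and 30 a mean over 6). No older symbol was needed for the members. Groups came from the sample titles, and the table held 0 further columns of sample values.

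The comparison used limma 3.58.1 under R 4.3.3 (lmFit, eBayes, two-sided, genotype only, all 6 arrays), with Benjamini-Hochberg adjustment over all genes and a threshold of 0.05. Values are Mll3-null minus WT with moderated standard errors, and the number of arrays limits their precision. Leave-one-out fits re-estimate the spread over the 5 arrays kept, pooled over both groups. The fit was run on simulated data with known shifts, to check the sign and size of the differences. How many such shifts pass the adjusted threshold is not given here. The members and lists were chosen with earlier results of these data known, so lists are described by counts and medians without a test. Every member is named, with values per array for separated, canonical and widest members. For the other pathway lists and the basal, luminal, proliferation and serum-response lists, up to 3 genes of smallest p were named. Tgfb2 and some basal, luminal and fibroblast markers were named besides, on other grounds. Promoters come from RefSeq (GRCm38.p6). The same annotation gave the chromosome of 99.2% of genes by gene identifier. Alternatives changed the variance model, the weights of arrays, a limit on dim genes, normalization, chromosome medians, probe sets, threshold, the replicate block and each array.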

Additional observations from a re-analysis of the deposited data

How the results depend on the processing

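No gene passed the adjusted threshold of 0.05 under any setting (limma, 0 genes), nor at 0.01. The count at an unadjusted p under 0.05, 1093 genes, was 2504 with array weights, 721 with only genes of mean over 4, 448 with only genes of mean over 6 (fewer genes tested), and 716 to 2742 with each array left out, the highest without Mll3-null replicate 1 and the lowest without Mll3-null replicate 2. Across leave-one-out fits the target median ran from -1.01 (without Mll3-null replicate 1) to -0.21 (without Mll3-null replicate 3), the component median from -0.16 to -0.0071, and the feedback median from -0.45 to -0.10. Targets wholly below WT numbered 2 to 8, feedback genes 0 to 3 and components 4 to 7, the highest counts without Mll3-null replicate 1, where 14% of all genes were wholly below WT, against 8.8% to 10.5% in the other leave-one-out comparisons; for targets the count was 4 without WT replicate 1 and 5 without Mll3-null replicate 2. With chromosome medians subtracted 2 components were wholly below WT in place of 4. The share of all genes wholly below WT under that setting is not given here. Without WT replicate 2 and Mll3-null replicate 3, chosen after the data were seen, the target median was -0.17.

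Of 35 members, 23 kept their direction in every setting run, among them Ccn1, Ccn2, Ankrd1, Asap1, Vgll3 and Yap1, and 12 did not. The variance models, the limits on dim genes and the replicate block cannot alter a difference, so only the other settings could change a direction. Gadd45b turned to 0.090 and Mob1b to -0.12 with array weights, Mob1b to -0.018 with median centring, and Dock5 to 0.011 and Lats1 to 0.0059 with chromosome medians subtracted; the cause was not tested. Leave-one-out values ran from 0.45 to 2.02 for F3, -0.33 to -0.021 for Wwtr1, -0.21 to -0.049 for Lats1, -0.19 to 0.0070 for Nuak2, -0.37 to 0.013 for Gadd45b, -0.22 to 0.31 for Dock5, -0.31 to 0.065 for Sav1, -0.16 to 0.035 for Mob1a, -0.23 to 0.14 for Mob1b, -0.015 to 0.32 for Amot, -0.17 to 0.11 for Tead4 and -0.26 to 0.11 for Vgll4. Without WT replicate 2 and Mll3-null replicate 3 together, values of the opposite sign were -0.036 for F3, 0.018 for Nuak2, 0.11 for Gadd45b, 0.012 for Sav1, 0.044 for Mob1a, -0.27 for Mob1b, -0.047 for Amot, 0.016 for Wwtr1, 0.14 for Tead4 and 0.077 for Vgll4.

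With the replicate block 0 genes passed and 1290 had an unadjusted p under 0.05 (limma). In this balanced layout the block leaves every difference as it was, so it could not change a direction. Deviations of same-numbered arrays correlated at 0.035, 0.079 and 0.31 across genes for numbers 1 to 3, the last being the highest of all pairs. WT replicate 2 correlated best with Mll3-null replicate 1 (0.22). Deviations were centred within each group, which ties these correlations to each other, so they cannot decide whether the numbers pair the samples. The main fit had no block because the labels name no shared animal, line or day. Dim probe sets, such as the second of Ccn2, limit what can be read.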
